A study of Mus musculus with 2 samples.

Results

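The interleukin-1 (IL-1) family genes Il1a, Il1b, Il18, Il33, Il1rn, Il18bp, Il1r1, Il1r2, Il1rap and Il1rl1 were chosen by name from the gene list of the deposited matrices. The rule of choice did not use their values, but earlier results of these data were known when it was made. They are 10 of 32285 genes, and all 10 reached the minimum of 20 unique molecular identifiers (UMIs) over both libraries that 16098 genes reached. The data were single-cell RNA-seq profiles, made on the 10x Genomics droplet platform, of mouse cornea and limbus. The uninjured library came from 1 wild-type mouse given the control treatment. The injured library came from 1 wild-type mouse with a sodium hydroxide (NaOH) burn, an alkali injury of the eye surface. The time after the burn, the age, the strain and the sex were not given in the sources used here. In both groups the lens, retina, iris and trabecular network had been removed, most of the conjunctiva had been cut away, and the tissue had been digested with liberase TM and then trypsin.

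IL-1α and IL-1β, the products of Il1a and Il1b, are agonists: they bind the receptor IL-1R1, which recruits the accessory protein encoded by Il1rap and signals through MyD88, IRAK kinases and NF-κB. IL-1α is active as made and is kept in epithelial cells as an alarmin that is released on cell damage, whereas IL-1β and IL-18 are made as precursors that caspase-1 cuts within inflammasomes. IL-33 is a nuclear alarmin that signals through ST2, encoded by Il1rl1, with the same accessory protein. The system has dedicated brakes: the receptor antagonist encoded by Il1rn occupies IL-1R1 without signalling, the decoy receptor IL-1R2 captures IL-1 without signalling, and the Il18bp product captures IL-18. In the cornea IL-1 from injured epithelium is known to act on keratocytes, the resident stromal cells, which then produce chemokines and matrix proteases.

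All 10 genes are protein-coding and were matched by identifier to GENCODE M21 on build GRCm38. Il1b (ENSMUSG00000027398) spans chr2:129364570-129371139 on the minus strand, beside Il1a (ENSMUSG00000027399) at chr2:129299610-129309972, also on the minus strand. Il1rn (ENSMUSG00000026981) lies elsewhere on the same chromosome, at chr2:24336853-24351494 on the plus strand. The receptor genes form a cluster on chromosome 1, plus strand: Il1r2 (ENSMUSG00000026073) at chr1:40074079-40125231, Il1r1 (ENSMUSG00000026072) at chr1:40225080-40317257 and Il1rl1 (ENSMUSG00000026069) at chr1:40429570-40465415. The remaining genes are Il1rap (ENSMUSG00000022514) at chr16:26581704-26730117, Il18 (ENSMUSG00000039217) at chr9:50554827-50581840, Il18bp (ENSMUSG00000070427) at chr7:102014885-102018690 and Il33 (ENSMUSG00000024810) at chr19:29925114-29960718. Il1b, Il1r2 and Il1rap overlap annotated antisense genes, Il1a overlaps Gm14023, Il18 overlaps Bco2 and Tex12, and Il18bp overlaps Numa1, all on the opposite strand. The strand setting of the counting was not given in the sources used here, so reads of such pairs may not be separable. Il1r1 also overlaps Gm38070, and Il1r2 overlaps Gm37347, on the same strand.

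The promoters of the agonists Il1a and Il1b, the antagonist Il1rn, the decoy Il1r2 and the IL-33 receptor Il1rl1 are shown because the comparison of agonist, antagonist, decoy and alarmin receptor turns on these genes. Each sequence holds the 250 bases before the first start site that RefSeq lists for the gene (GRCm38.p6), read 5′ to 3′ on the gene's strand, at chr2:129309973-129310222 for Il1a, chr2:129371140-129371389 for Il1b, chr2:24336610-24336859 for Il1rn, chr1:40085843-40086092 for Il1r2 and chr1:40429320-40429569 for Il1rl1. Capitals mark matches, searched on both strands, to AP-1 (TGANTCA), C/EBP (TTGCNNAA), PU.1 (GAGGAAG) or the NF-κB consensus.
Il1a: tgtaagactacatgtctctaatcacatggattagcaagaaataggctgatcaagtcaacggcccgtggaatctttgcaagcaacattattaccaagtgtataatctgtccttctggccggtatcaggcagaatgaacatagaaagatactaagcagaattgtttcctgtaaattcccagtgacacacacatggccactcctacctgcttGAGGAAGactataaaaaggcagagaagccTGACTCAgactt
Il1b: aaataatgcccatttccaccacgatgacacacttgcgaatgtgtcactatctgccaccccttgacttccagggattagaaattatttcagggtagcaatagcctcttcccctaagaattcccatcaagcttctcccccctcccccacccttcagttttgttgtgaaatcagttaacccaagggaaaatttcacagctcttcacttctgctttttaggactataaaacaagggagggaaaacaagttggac
Il1rn: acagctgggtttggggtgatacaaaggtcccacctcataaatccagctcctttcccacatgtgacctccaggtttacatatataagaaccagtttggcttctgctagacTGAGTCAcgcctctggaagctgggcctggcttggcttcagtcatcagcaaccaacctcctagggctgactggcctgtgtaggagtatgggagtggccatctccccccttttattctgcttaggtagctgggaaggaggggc
Il1r2: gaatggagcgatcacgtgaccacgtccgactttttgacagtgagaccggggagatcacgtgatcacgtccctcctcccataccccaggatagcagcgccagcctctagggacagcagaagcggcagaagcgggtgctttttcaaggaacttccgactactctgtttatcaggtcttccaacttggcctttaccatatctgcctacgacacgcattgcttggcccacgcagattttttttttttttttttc
Il1rl1: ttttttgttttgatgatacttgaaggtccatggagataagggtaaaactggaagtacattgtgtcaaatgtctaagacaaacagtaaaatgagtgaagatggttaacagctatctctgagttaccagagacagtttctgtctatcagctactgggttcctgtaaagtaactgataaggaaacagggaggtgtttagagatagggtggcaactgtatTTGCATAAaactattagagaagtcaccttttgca
The Il1a window held 1 PU.1 match and 1 AP-1 match, the Il1rn window 1 AP-1 match and the Il1rl1 window 1 C/EBP match. The Il1b and Il1r2 windows held none of these letters. RefSeq also lists later starts for Il1rn and Il1rl1. Their windows at chr2:24345041-24345290, chr2:24345121-24345370 and chr1:40439379-40439628 each held 0 matches. Which start was used in these cells was not tested. Among the 32851 promoter windows of the same length in the RefSeq table, 6.75% held the AP-1 letters, 9.56% the C/EBP letters, 10.6% the PU.1 letters and 7.25% the NF-κB consensus.

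After filtering, 6775 uninjured and 8346 injured cells with 77816659 and 96375562 UMIs were analysed, and the median depth per cell was 10162 and 10599 UMIs; 15 cell barcodes occurred in both libraries. Cells were clustered without the 10 genes and named from marker lists. The epithelial-like class held 5759 uninjured and 5769 injured cells and the stromal-like class 458 and 801. Mural-like cells, the pericytes and smooth muscle of vessels, numbered 58 and 87, Schwann-like cells 55 and 97, and vascular endothelial-like cells 42 and 212. Macrophage or monocyte-like cells, a cluster that also held cells with dendritic markers such as Cd74 and H2-Aa, numbered 16 and 342. Neutrophil-like cells made up 2 of the uninjured cells and 1019 of the injured cells, 12.2% of that library (95% exact interval 11.5% to 12.9%), with a median of 853 UMIs. A shallow uninjured cluster of 382 cells with epithelial markers was left unnamed. The 2 libraries rarely shared clusters: the uninjured epithelium carried the corneal markers Krt12, Aldh3a1, Slurp1, Upk1b and Pax6 at a summed 34969 UMIs per 1000000 UMIs (CPM), against 465 CPM in the injured epithelium, whereas the summed limbal markers were at 4958 and 17302 CPM and the summed conjunctival markers at 1401 and 3994 CPM. The part of these shifts in the results was not tested.

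With 1 library per group there is no replicate and no test of the injury. A level is a gene's CPM within a class, and its interval, like that of a ratio, is an exact 95% interval that covers counting error only, not the spread between mice. Levels are given only where a class had at least 10 cells in a library, which leaves out the 2 uninjured neutrophil-like cells. A gene was said to be past 2-fold when its levels differed at least 2-fold and both libraries together held at least 20 of its UMIs, with counts under 3 set to 3. A ratio over 1 or 2 UMIs is printed without that floor, with its interval, and then with it. Levels are compared for the same gene between classes or libraries, because the counts are not scaled for gene length. In whole-library values, more cells of a type and more RNA per cell cannot be told apart.

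Over all cells, 8 of the 10 genes were past 2-fold higher in the injured library and none was past 2-fold lower, where 20.7% of all 16098 genes were higher and 8.93% lower. The genes' median log2 ratio was 2.51, against 0.13 over all genes. The decoy receptor and the ST2 gene had the largest ratios: Il1r2 was at 0.565 CPM (44 UMIs) and 40.5 CPM (3904 UMIs), a ratio of 71.6 (53.3 to 98.8), and Il1rl1 had 0 and 554 UMIs, at least 149-fold higher against a floor of 3 UMIs. Il1b was at 2.62 and 44.8 CPM, 17.1-fold higher (14.9 to 19.8). Il33 was 8.20-fold higher (7.05 to 9.59), Il1rn 6.55-fold (5.93 to 7.26), Il18bp 4.97-fold (3.82 to 6.55), Il1r1 4.21-fold (3.82 to 4.65) and Il1rap 4.02-fold (3.49 to 4.64). Il1a and Il18 were the exceptions. Il1a was at 27.5 and 18.0 CPM, 1.52-fold lower in the injured library (1.43 to 1.63), and Il18 was at 56.3 and 51.3 CPM. With every cell weighted alike, which gives the shallow neutrophil-like cells more weight, the Il1b log2 ratio was 6.17 in place of 4.10 and that of Il1r2 8.01 in place of 6.16. The Il1a log2 ratio turned in direction, to 0.21 in place of -0.61, and was 0.19 with every cell thinned to 500 UMIs.

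**Figure D1:**
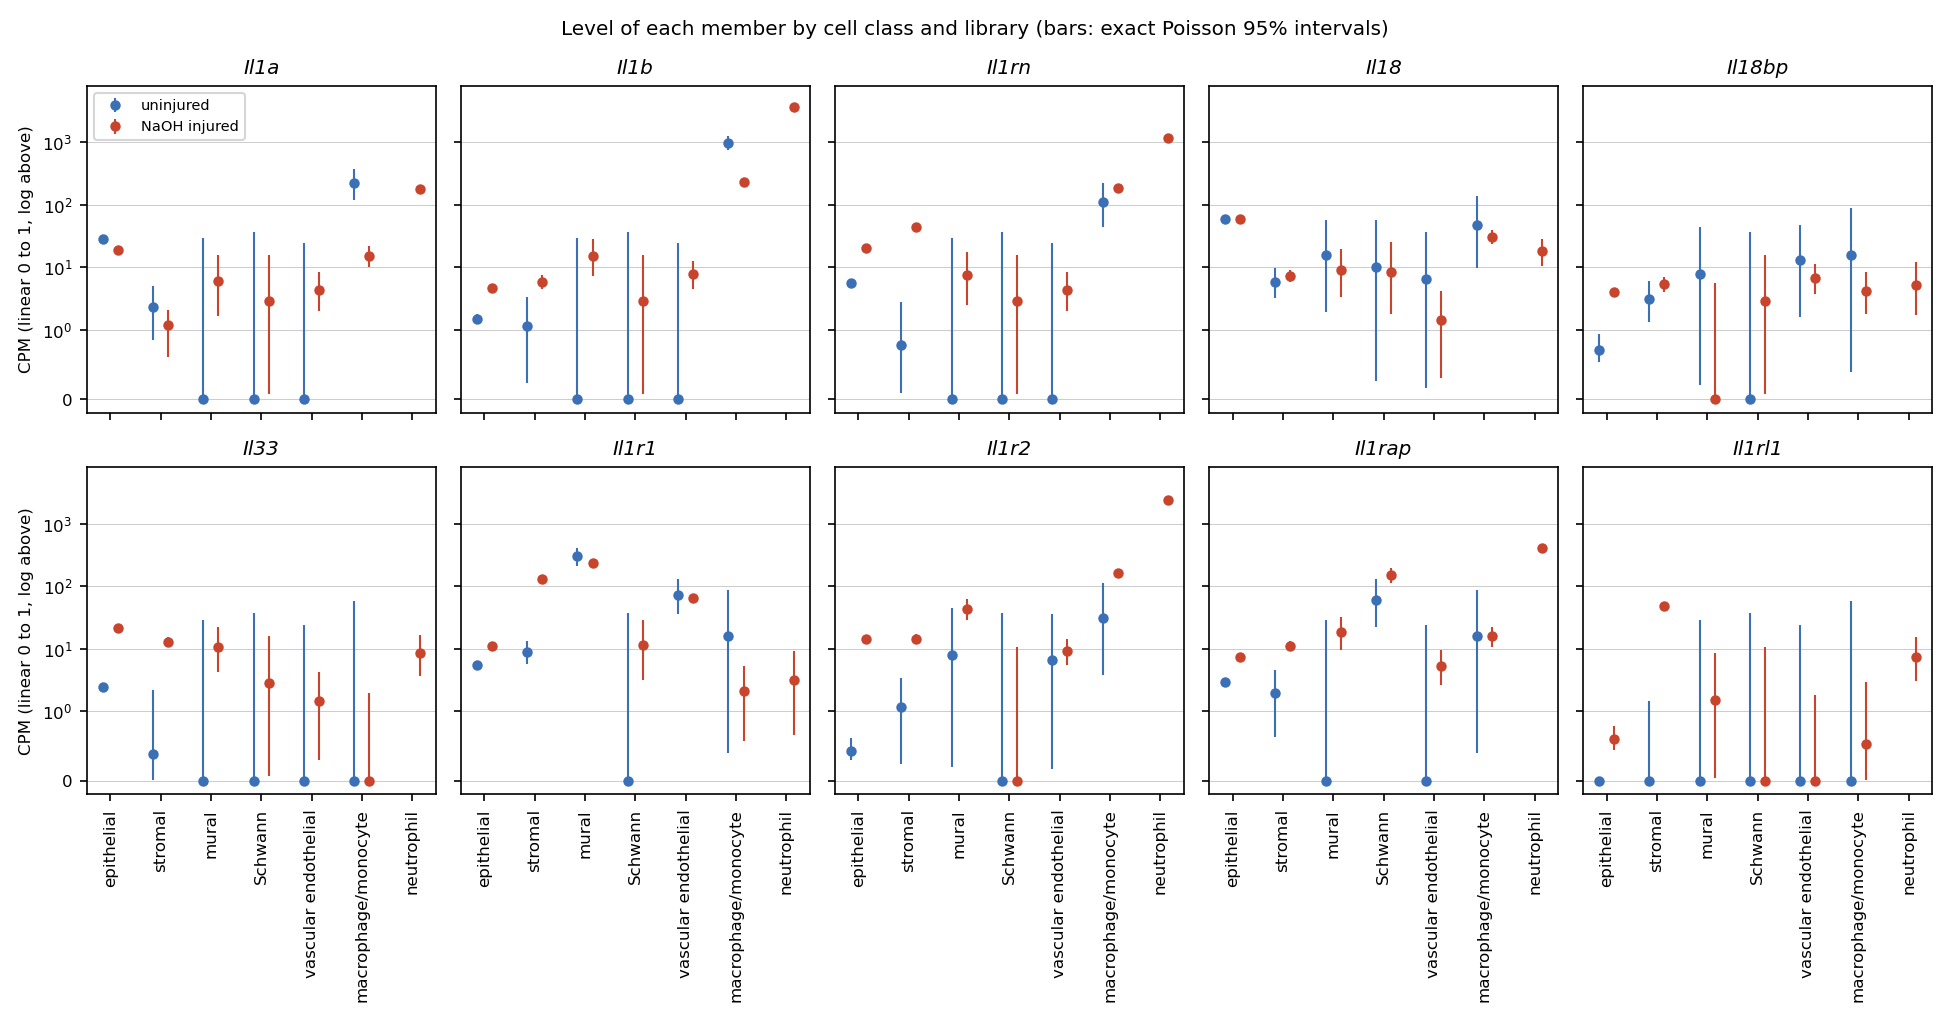
Levels of the 10 genes in CPM, on an axis that is linear near 0 and logarithmic above, for each cell class of both libraries, with exact 95% Poisson intervals. Among classes with at least 10 cells in a library, Il1b, Il1rn and Il1r2 are highest in injured neutrophil-like cells (3631, 1160 and 2386 CPM), Il18 in epithelial-like cells, Il1r1 in mural-like cells and Il1rl1 in injured stromal-like cells.

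The UMIs of the same genes lay in different classes in the 2 libraries. These shares also follow the makeup of each library. Epithelial-like cells held 74103717 of all 77816659 uninjured UMIs and 80329892 of all 96375562 injured UMIs. A large epithelial share is therefore not by itself a higher level. Of the 204 Il1b UMIs of the uninjured library, 54.4% were in epithelial-like cells, 30.4% in the 16 macrophage or monocyte-like cells and 13.7% (28 UMIs) in the 2 neutrophil-like cells. Of the 4318 injured Il1b UMIs, 79.2% (77.9% to 80.4%) were in neutrophil-like cells, 10.2% in macrophage or monocyte-like cells and 8.62% in epithelial-like cells. The antagonist gene Il1rn was spread more widely: 95.6% of its uninjured UMIs were epithelial, and in the injured library 45.7% were epithelial, 31.0% neutrophil, 12.8% stromal and 10.1% macrophage or monocyte. Il1r2 went from 72.7% epithelial to 57.5% neutrophil and 29.5% epithelial. For the signalling receptor Il1r1, 83.7% of UMIs were epithelial in the uninjured library, and 52.8% stromal and 35.2% epithelial in the injured one. Its partner Il1rap was 49.3% epithelial, 32.3% neutrophil and 9.41% stromal in the injured library. The alarmin genes Il1a and Il33 and the precursor gene Il18 had most of their UMIs in epithelial-like cells in both libraries. The shares were 98.1% and 87.3% for Il1a, 98.9% and 96.7% for Il18 and 99.5% and 92.1% for Il33. Il18bp was 80.3% and 79.8% epithelial. Il1rl1 had 89.7% of its UMIs in stromal-like cells and 8.66% in epithelial-like cells, in the injured library only.

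**Figure D2:**
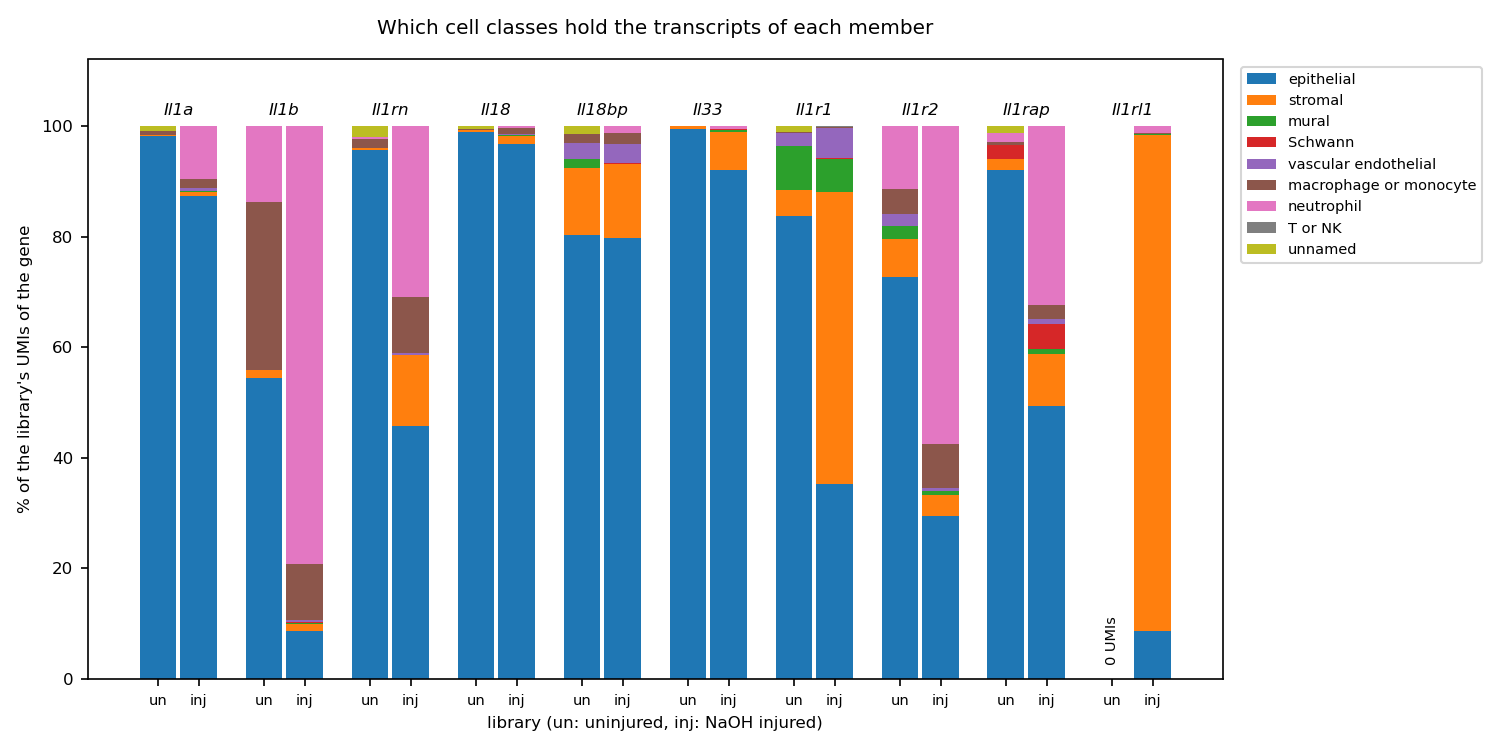
Share of each gene's UMIs (percent) by cell class, 1 bar per library. Il1b is mostly neutrophil in the injured library (79.2%), Il1r1 is mostly stromal (52.8%), and Il18 is epithelial in both (98.9% and 96.7%).

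Among classes with at least 10 cells in a library, Il1b was highest in neutrophil-like cells of the injured library. The 2 uninjured neutrophil-like cells, too few for a level, held 28 Il1b UMIs among 2537 UMIs, a higher share than in the injured ones. Injured neutrophil-like cells held 3418 Il1b UMIs, 3631 CPM (3510 to 3754). The 342 injured macrophage or monocyte-like cells were at 231.9 CPM (442 UMIs), and the next classes were far lower: mural-like at 15.3 CPM (10 UMIs), vascular endothelial-like at 7.77 CPM (16 UMIs), stromal-like at 5.84 CPM (59 UMIs) and epithelial-like at 4.63 CPM (372 UMIs). The intervals of the last 3 classes overlapped, as did those of the mural-like and vascular endothelial-like classes. After each cell was thinned to 500 UMIs, Il1b was detected in 61.0% of injured neutrophil-like cells (58.0% to 64.1%; 72.9% unthinned) and in 0.104% of injured epithelial-like cells (4.54% unthinned), whereas 0 of 97 injured Schwann-like cells had a thinned Il1b UMI, and 1 of them had one unthinned. Taken as 3 cells, the limit of a count of 0 is a thinned share of 3.09%.

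RNA that leaks from neutrophils into other droplets can give a background for such low levels. The 8 neutrophil markers were found in injured epithelial-like cells at 0.0712% to 0.241% of their level in neutrophil-like cells (median 0.105%), and Il1b there stood at 0.128% of its neutrophil level, inside that range. In stromal-like cells 7 of the markers ranged from 0% to 0.740% and G0s2 stood at 9.62% (median 0.194%), and Il1b stood at 0.161%. The Il1b ratios of 3.09 (2.50 to 3.86) in epithelial-like cells and 5.02 (1.64 to 25.0; 3 and 59 UMIs) in stromal-like cells are therefore at a level at which neutrophil markers were also counted, and are not read as expression. The injured epithelial cells highest for Il1b held 17, 15 and 9 of 372 UMIs, and the stromal ones 8, 5 and 5 of 59. Uninjured epithelial-like cells held 111 UMIs in 104 cells. The part of leaked RNA in these values, and in those set against markers below, was not tested.

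In the macrophage or monocyte-like class Il1b had the opposite direction. The 16 uninjured cells were at 976.7 CPM (62 UMIs) and the 342 injured cells at 231.9 CPM, 4.21-fold lower (3.18 to 5.50). The uninjured value rested on 6 cells, and 3 of them held 22, 16 and 14 of the 62 UMIs. The cell with 22 lay in a sub-cluster of 2 uninjured and 9 injured cells that was led by epithelial genes such as Gpha2 and Krt12. Without that sub-cluster, an alternative chosen after seeing the data, the levels were 748.6 CPM (40 UMIs) and 225.9 CPM, 3.31-fold lower (2.33 to 4.59). Il1a had the same direction in this class, at 220.5 CPM (14 UMIs in 4 cells, 9 of them in 1 cell) and 15.2 CPM (29 UMIs), 14.5-fold lower (7.08 to 28.3). Within the class the makeup also differed: sub-clusters of the injured cells ranged from 10.2 to 1241 CPM for Il1b, and the uninjured cells were too few to be compared sub-cluster by sub-cluster.

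Il1a, the alarmin agonist, was mainly an epithelial transcript. Epithelial-like cells held 2098 and 1517 of its UMIs, 28.3 and 18.9 CPM, 1.499-fold lower in the injured epithelium (1.40 to 1.60) and short of 2-fold. Injured neutrophil-like cells were higher per UMI, at 176.3 CPM (150.5 to 205.3; 166 UMIs), but only 6.28% of them had an Il1a UMI after thinning. Stromal-like cells were at 2.33 and 1.19 CPM, on 6 and 12 UMIs.

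Il18, the precursor released through inflammasomes, had 4384 UMIs in the uninjured library, and its epithelial level was the same within counting error in both libraries: 58.5 and 59.5 CPM, a ratio of 1.02 (0.976 to 1.06). That value depended on how cells were pooled: the log2 ratio, 0.02 here, was -0.43 with every cell weighted alike, -0.66 and -0.26 with every cell thinned to 500 and 1000 UMIs, and -1.40 without 2 clusters of high Krt13 and low Krt12. Macrophage or monocyte-like cells were at 47.3 CPM (3 UMIs) and 31.0 CPM (59 UMIs), and injured neutrophil-like cells at 18.1 CPM (17 UMIs). Stromal-like cells were at 5.82 and 7.33 CPM.

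Il33, the ST2 ligand gene, had 184 of its 185 uninjured UMIs in the epithelium. Its epithelial level was 2.48 and 21.5 CPM, 8.67-fold higher in the injured library (7.45 to 10.2). The stromal-like class had 1 uninjured and 129 injured UMIs, 0.388 and 12.8 CPM, a ratio of 32.9 with an interval of 5.81 to 1311, or 11.0 with the floor of 3 UMIs. Injured macrophage or monocyte-like cells had 0 Il33 UMIs among 1906078, and neutrophil-like cells had 8.

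**Figure D3:**
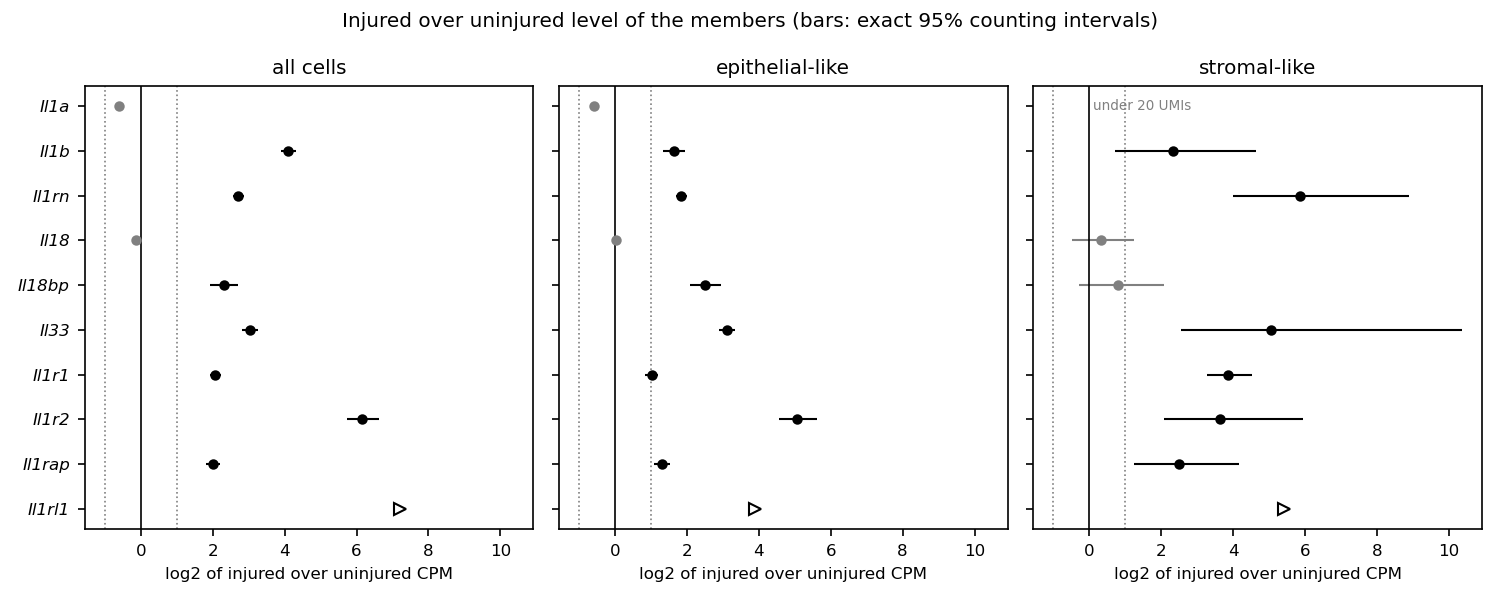
Log2 ratio of the injured over the uninjured level for each gene over all cells and in the epithelial-like and stromal-like classes, with exact 95% intervals; grey points are short of 2-fold (dotted lines), Il1a had under 20 stromal UMIs, and open triangles are lower bounds for Il1rl1, which had 0 uninjured UMIs. In the epithelial-like class 8 genes lie past 2-fold higher and Il1a and Il18 do not, and the Il1r1 ratio of 14.6 in the stromal-like class stands against 2.02 in the epithelial-like class.

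In the epithelial-like class, 8 of 10 genes were past 2-fold higher and none lower, where 14.5% of the 14690 genes measured there were higher and 11.7% lower. Their median log2 ratio was 1.73, against 0.02 over all genes of that class. The brakes on the system were each past 2-fold higher. Il1r2 was at 0.432 CPM (32 UMIs) and 14.3 CPM (1152 UMIs), 33.2-fold higher (23.4 to 48.8). Il18bp was at 0.715 and 4.03 CPM, 5.64-fold higher (4.21 to 7.69), and Il1rn at 5.60 and 20.04 CPM, 3.58-fold higher (3.21 to 3.996). Il33 (8.67-fold) and Il1rl1 (at least 14.8-fold) had higher ratios than Il18bp and Il1rn. The injured Il18bp level was no higher here than in injured stromal-like cells, at 5.35 CPM. The signalling receptor Il1r1 was at 5.40 and 10.9 CPM, 2.02-fold higher (1.80 to 2.28), with the lower bound short of 2-fold. Il1rap was 2.46-fold higher (2.10 to 2.89), and Il1rl1 had 0 and 48 UMIs, at least 14.8-fold higher. With every cell thinned to 500 UMIs, 3 of the genes were past 2-fold higher. Compared with neutrophil-like cells, injured epithelial-like cells stood at 1.73% for Il1rn, 0.601% for Il1r2 and 1.79% for Il1rap, where the highest neutrophil marker stood at 0.241%; the pooled Il1r2 value rests largely on 1 cluster, described next. Of the 8 genes past 2-fold, Il1b lay within the range of the neutrophil markers. Il1rl1, with 48 UMIs in 47 cells, stood at 1.21% of its stromal level; 8 of the 9 stromal markers stood at 0.374% to 0.623% in these cells, and Fbln1 at 82.3%.

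Levels differed widely between clusters of the epithelium. In the injured library, 11.0% of epithelial-like cells (632 cells) fell in a cluster led by Ltf, Ppbp and Krt19 with the conjunctival keratin genes Krt4 and Krt13. This cluster held 969 of the 1152 injured epithelial Il1r2 UMIs, 1419 of the 1730 Il33 UMIs and 3026 of the 4779 Il18 UMIs. Its levels were 61.1 CPM (57.4 to 65.1) for Il1r2, 89.5 CPM (84.9 to 94.3) for Il33, 190.9 CPM (184.2 to 197.9) for Il18, 56.3 CPM for Il1rn and 51.6 CPM for Il1a. In the other 5 injured epithelial clusters Il1r2 was between 1.95 and 7.29 CPM and Il33 between 0 and 13.4 CPM. The most populous of them, the Gpha2 and Hpgd cluster with 49.9% of the injured epithelium, was at 13.9 CPM for Il18, 6.72 CPM for Il1a, 6.88 CPM for Il1rn and 1.07 CPM for Il33.

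The same Krt13-high cluster held 25 uninjured cells, which allowed the libraries to be set side by side within it. The 25 cells were at 72.5 CPM (54.5 to 94.6) for Il33, 130.3 CPM for Il18, 57.8 CPM for Il1rn and 26.9 CPM (20 UMIs) for Il1a. The injured over uninjured ratio was 0.975 (0.718 to 1.36) for Il1rn, 1.23 (0.941 to 1.65) for Il33, 1.47 (1.20 to 1.81) for Il18 and 1.92 (1.24 to 3.16) for Il1a, all short of 2-fold. Il1r2 was at 6.72 CPM (5 UMIs) and 61.1 CPM, 9.10-fold higher in the injured cells (3.89 to 28.1). In a second cluster found in both libraries, led by Serpinb3a and Krt15, Il1rn was at 50.1 CPM in 53 uninjured cells and 21.3 CPM in 611 injured cells, a ratio of 0.426 (0.300 to 0.617), and Il1r1 was at 27.0 and 15.6 CPM.

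Without these 2 clusters, an alternative chosen after seeing the data, the epithelial-like class held 5681 uninjured and 4526 injured cells, and both Il1a and Il18 were past 2-fold lower. Il1a was then at 28.6 and 10.5 CPM, 2.72-fold lower (2.48 to 2.99), and Il18 at 58.0 and 22.0 CPM, 2.64-fold lower (2.47 to 2.81). Il1rn was 2.06-fold higher (1.80 to 2.38), Il33 2.22-fold (1.75 to 2.83), Il1r1 1.53-fold (1.33 to 1.77) and Il1r2 5.89-fold (3.83 to 9.39). The injured Il1r2 level then stood at 0.0885% of the neutrophil level, inside the 0% to 0.242% of the 8 neutrophil markers in the same cells, and is not read as expression; Il1b, at 0.112%, was inside it too. Il1rn stood at 0.817% and Il1rap at 1.75%. With Il1b and Il1r2 still counted, 7 of the 10 genes were past 2-fold higher and 2 past 2-fold lower. Of 14303 genes, 14.6% were higher and 14.5% lower.

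Uninjured epithelium had its own gradient. The cluster led by Psca, Lce3a and Cysrt1, 282 cells with high levels of the corneal marker Slurp1, was at 307.6 CPM for Il18 (291.3 to 324.6) and 63.3 CPM for Il1a. The Dsg1a and Gsta2 cluster followed for Il18 at 94.7 CPM, and the Nppb, Mmp13 and Mmp10 cluster followed for Il1a at 35.9 CPM. The Aldh3a1 and Fam169a cluster was at 24.2 CPM for Il18 and 12.5 CPM for Il1a, and the cycling cluster at 17.8 and 19.3 CPM.

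Stromal-like cells had the clearest differences among the receptors. In this class 7 of the 9 genes with enough UMIs were past 2-fold higher and none lower, where 11.0% of 11955 genes were higher and 10.0% lower, and the median log2 ratio of the 9 was 3.46, against 0.00 over all genes of the class. Il1r1 was at 8.92 CPM (23 UMIs) and 130.4 CPM (1317 UMIs), 14.6-fold higher (9.70 to 23.2). Il1rl1 had 0 UMIs in 458 uninjured cells and 497 in the injured cells, 49.2 CPM (45.0 to 53.7), at least 42.3-fold higher. The accessory gene Il1rap was at 1.94 CPM (5 UMIs) and 11.0 CPM (111 UMIs), 5.67-fold higher (2.36 to 17.8). Injured stromal-like cells were deeper, at a median of 12005 UMIs against 5725, and with every cell thinned to 1000 or 500 UMIs 3 and 1 of the genes were past 2-fold higher.

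The antagonist gene Il1rn was also past 2-fold higher in injured stromal-like cells. Il1rn had 2 and 451 UMIs, 0.775 and 44.6 CPM, a ratio of 57.6 with an interval of 15.8 to 477, or 38.4 with the floor. Il1r2 had 3 and 147 UMIs, 1.16 and 14.6 CPM, a ratio of 12.5 (4.20 to 61.4). Injured stromal Il1rn stood at 3.85% of the neutrophil level and Il1r2 at 0.610%; 7 of the 8 neutrophil markers lay at or under 0.740% in these cells and G0s2 at 9.62%, so Il1rn stood above 7 markers and Il1r2 within their range. Of the 7 genes past 2-fold in this class, Il1b and Il1r2 thus lay at levels at which neutrophil markers were also counted, and are not read as expression. Il18bp was at 3.10 and 5.35 CPM, a ratio of 1.72 (0.815 to 4.19), and Il18 at 5.82 and 7.33 CPM, neither past 2-fold. The uninjured class lay to 91.3% in a cluster led by Kera, a keratocyte matrix gene, and Angptl7, and the injured class to 96.6% in a cluster led by Mmp3, Saa3 and Chil1, so a change within a cell population and a change of population cannot be told apart.

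Among sub-clusters of injured stromal-like cells the receptors followed different orders. The Cxcl14 sub-cluster (358 cells) was at 171.4 CPM for Il1r1 and 61.2 CPM for Il1rl1, the Chil1 sub-cluster (232 cells) at 135.7 and 26.3 CPM, and the Spp1, Tagln and Acta2 sub-cluster (135 cells) at 76.0 and 66.5 CPM. The last was highest for the antagonist gene Il1rn, at 81.2 CPM against 37.2 and 27.3 CPM. A sub-cluster of 24 injured cells led by Clec3b and Pi16 had the highest stromal Il33 level: 191.6 CPM (131.1 to 270.5), with Il1r1 at 149.7 CPM and no Il1rl1 UMI, which allows up to 22.1 CPM. Another sub-cluster of 27 injured cells, at a median of 20758 UMIs, was led by epithelial genes such as Lgals7 and Krt14. It was kept in the stromal-like class, and its part in the values of the class was not tested.

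The highest Il1r1 levels were in cells of the vessel wall. Mural-like cells were at 302.1 CPM (38 UMIs, 213.8 to 414.6) uninjured and 232.4 CPM (152 UMIs, 196.9 to 272.4) injured, a ratio of 0.769 (0.536 to 1.13). The 16 injured T or NK-like cells had 4 UMIs (143.9 CPM, 39.2 to 368.4), injured stromal-like cells followed at 130.4 CPM, and vascular endothelial-like cells at 72.3 and 64.1 CPM. Injured neutrophil-like cells with 3 Il1r1 UMIs (3.19 CPM) and macrophage or monocyte-like cells with 4 (2.10 CPM) were at the other end of the order, with overlapping intervals. None of the genes with enough UMIs in the mural-like class (2) or the vascular endothelial-like class (2) was past 2-fold, where 13.2% and 8.99% of genes were higher and 10.6% and 10.2% lower. Schwann-like cells, the glia of the corneal nerves, had 1 measured gene, the accessory gene Il1rap, which was past 2-fold higher: 60.6 CPM (6 UMIs) and 151.6 CPM (53 UMIs), a ratio of 2.50 (1.08 to 7.12), where 16.9% of genes were higher and 6.54% lower. After neutrophil-like cells, injured Schwann-like cells had the highest Il1rap level of any class.

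Neutrophil-like cells held agonist, antagonist and decoy together, and nearly no signalling receptor. The injured cells were at 1160 CPM for Il1rn (1092 to 1231), 2386 CPM for Il1r2 (2288 to 2487) and 404.7 CPM for Il1rap (365.1 to 447.5), each the highest level of that gene in any class with at least 10 cells in a library. The 2 uninjured neutrophil-like cells held 1 Il1rn, 5 Il1r2 and 4 Il1rap UMIs among 2537 UMIs. For Il1rap that was a higher share than in the injured cells. After thinning, 61.5% of the cells had an Il1r2 UMI, 33.1% an Il1rn UMI and 17.2% an Il1rap UMI. Of the 743 cells with an Il1b UMI, 343 (46.2%) also had Il1rn, against 40.2% of those without, and 556 (74.8%) had Il1r2, against 75.7% of those without. Of the 97 cells with Il1a, 68 (70.1%) also had Il1rn, against 41.9% of the others. Of the same 97 cells, 85 had Il1b. Cells with Il1a had a median of 924 UMIs and the others 845.5, and no depth correction was made for these shares.

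Il1a differed between the 3 neutrophil sub-clusters of the injured library, with intervals that did not overlap. The sub-cluster highest for it held 324 cells, its leading genes are not given here, and it stood at 288.5 CPM (232.3 to 354.2). The Isg15 and Rsad2 sub-cluster (378 cells), marked by interferon-stimulated genes, was at 176.4 CPM (135.9 to 225.3), and the Stfa2 and Retnlg sub-cluster (317 cells) at 41.8 CPM (20.9 to 74.8). Il1b was at 3402, 4347 and 2917 CPM in the same order. Il1rn was at 1233, 1298 and 881.3 CPM, with overlapping intervals for the first and second. Il1r2 was at 1839 CPM (1692 to 1995) in the 324 cells, below the 2658 CPM (2492 to 2831) and 2667 CPM (2473 to 2871) of the others.

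Macrophage or monocyte-like sub-clusters separated agonist from antagonist. The 52 injured cells led by Cd209a, H2-Ab1 and Ccr7, genes of dendritic cells, were at 1241 CPM for Il1b (1087 to 1411) and 1002 CPM for Il1r2 (864 to 1155), with Il1rn at 37.3 CPM (15.0 to 76.8) and no Il1a UMI; Il1r2 was itself among their leading genes. The 103 cells led by Ccl24 and Arg1 had the reverse, with Il1rn at 343.4 CPM (292 to 402) and Il1b at 74.4 CPM. The 83 cells led by Ccl8 and Selenop were at 193.2 CPM for Il1rn and 10.2 CPM for Il1b. The 65 cells led by S100a8, Vcan and Chil3 held all 3, with Il1b at 462.5 CPM, Il1r2 at 352.6 CPM and Il1rn at 238.8 CPM. Over the whole class, 44 of 78 Il1b-positive injured cells (56.4%) also had Il1r2, against 16.7% of the negative cells, and 28 of 78 (35.9%) had Il1rn, against 39.0%. Of antagonist and decoy, 20 of 131 Il1rn-positive cells (15.3%) had Il1r2, against 32.2% of the negative cells.

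In macrophage or monocyte-like cells 6 genes had enough UMIs for a ratio. Il1r2 was past 2-fold higher, with 2 and 312 UMIs and a ratio of 5.20 (1.43 to 43.1), or 3.46 with the floor, and Il1a and Il1b were past 2-fold lower, where 4.57% of 7311 genes were higher and 10.8% lower. Il1rn was at 110.3 CPM (7 UMIs) and 186.2 CPM (355 UMIs), a ratio of 1.69 (0.811 to 4.23). In the injured cells Il1r2 stood at 6.86% of its neutrophil level and Il1b at 6.39%, within the 0% to 28.8% of the 8 neutrophil markers (median 0.644%); the Cd209a, H2-Ab1 and Ccr7 cells held much of both, at the levels given above.

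**Figure D4:**
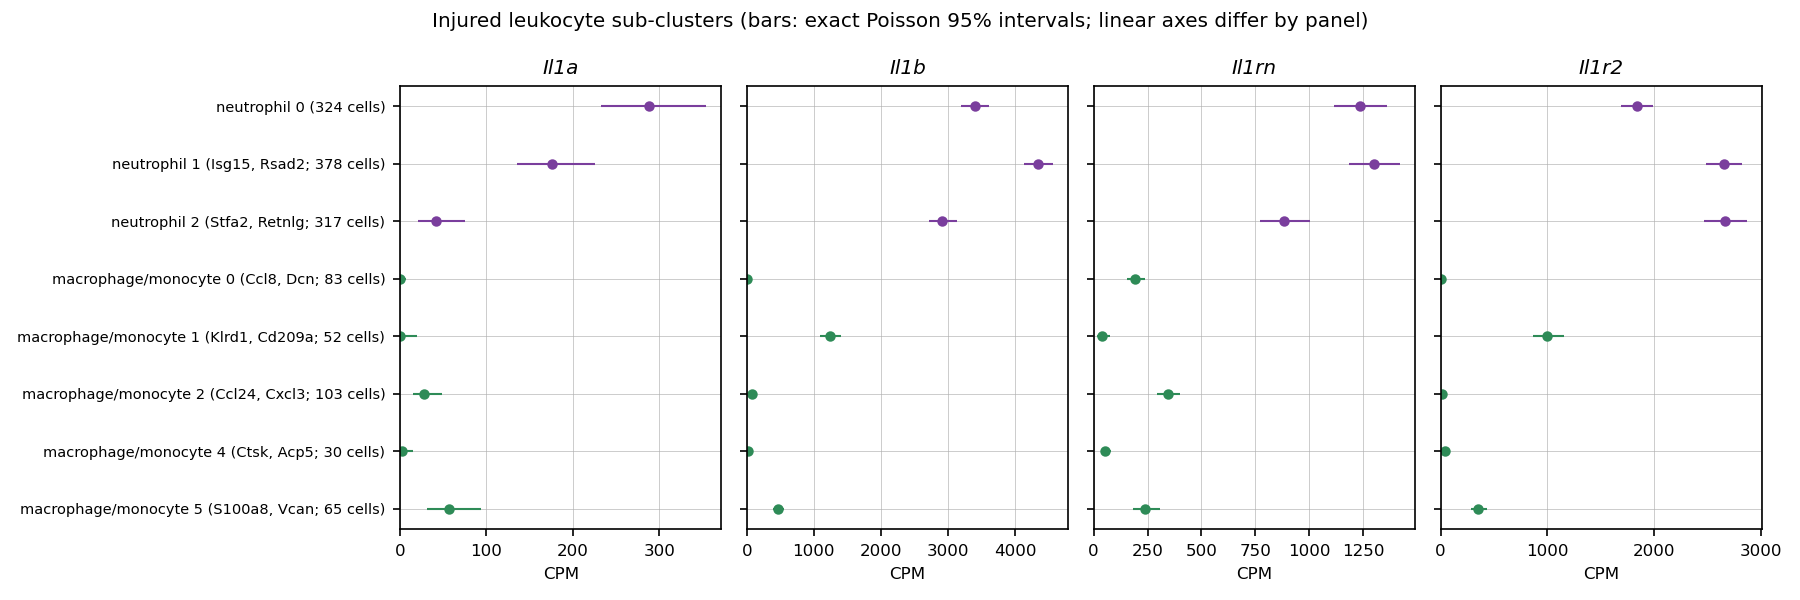
Levels in CPM, with exact 95% Poisson intervals, of Il1a, Il1b, Il1rn and Il1r2 in the 3 sub-clusters of injured neutrophil-like cells and the 5 sub-clusters of injured macrophage or monocyte-like cells that held at least 20 cells. Il1b and Il1r2 are both high in the Cd209a and Ccr7 sub-cluster (1241 and 1002 CPM), whereas Il1rn is highest among macrophage or monocyte sub-clusters in the Ccl24 and Arg1 cells (343.4 CPM).

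Summed over all cells, antagonist and decoy transcripts were more numerous per IL-1 agonist transcript in the injured library. For each UMI of Il1a and Il1b together, all cells held 0.185 Il1rn UMIs uninjured and 0.582 injured, and 0.0188 and 0.645 Il1r2 UMIs. In epithelial-like cells the Il1rn ratio was 0.188 (0.169 to 0.209) and 0.852 (0.797 to 0.911), and the Il1r2 ratio 0.0145 and 0.610. Macrophage or monocyte-like cells were at 0.0921 (0.0358 to 0.199) and 0.754 (0.655 to 0.867) for Il1rn. Neutrophil-like cells of the injured library were at 0.305 (0.284 to 0.326). Injured stromal-like cells were at 6.35 (4.94 to 8.28), but 59 of their 71 agonist UMIs were Il1b, at the level of the neutrophil background described above. The Il1r2 ratio of neutrophil-like cells, 0.627, lay near the 0.610 of epithelial-like and the 0.662 of macrophage or monocyte-like cells. The epithelial value pools unlike clusters, with 969 of its 1152 Il1r2 UMIs in the Krt13-high cluster. Of its 1889 agonist UMIs, 372 were Il1b, also at the level of the neutrophil background. For each Il18 UMI, epithelial-like cells held 0.0122 Il18bp UMIs uninjured and 0.0678 injured. In none of the 3 epithelial clusters with at least 20 cells of both libraries was the Il1rn ratio higher in the injured cells. In the Krt13-high cluster it was 2.05 (1.19 to 3.63; 43 and 21 UMIs) uninjured and 1.00 (0.914 to 1.10; 892 and 888 UMIs) injured. The Serpinb3a and Krt15 cluster was at 7.80 (3.07 to 25.4; 39 and 5 UMIs) and 0.990 (0.807 to 1.21), and the remaining shared cluster at 1.61 (0.931 to 2.84; 37 and 23 UMIs) and 1.00 (0.230 to 4.35; 5 and 5 UMIs). For Il1r2 the Krt13-high cluster was at 0.238 (0.0701 to 0.649) and 1.09 (0.995 to 1.20). These are ratios of transcripts of unlike length, read across classes and not as protein balance.

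At the level of single cells, receptor and accessory chain were detected together in few stromal-like cells. Il1rap itself was detected in only 101 of 801 injured stromal-like cells, which limits how often a pair can be seen. Of the 537 injured stromal-like cells with an Il1r1 UMI, 114 (21.2%) also had Il1rl1, against 13.6% of those without. Of the same 537 cells, 82 (15.3%) had Il1rap, against 7.20% of those without. Cells with Il1r1 were deeper, at a median of 12814 against 9175 UMIs, and no depth correction was made for the shares of pairs. Of the 150 cells with Il1rl1, 29 (19.3%) had Il1rap, against 11.1% of the others. In injured epithelial-like cells, 295 of 854 cells with Il1a (34.5%) also had Il1rn, against 11.5% of the others; cells with Il1a were deeper, at a median of 16191 against 11259 UMIs.

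The other genes of the pathway were read from 6 lists, whose counts stand against the shares of all genes past 2-fold given above: 14.5% higher and 11.7% lower in epithelial-like cells, and 11.0% and 10.0% in stromal-like cells. Of 11 further IL-1 family genes, mainly the IL-36 group, 7 had enough UMIs in the epithelial-like class; 3 were past 2-fold higher and 1 lower, with a median log2 ratio of 0.58. These 4 were named after their values were seen: the agonist genes Il1f9 (IL-36γ), at 3.83 and 25.2 CPM, 6.57-fold higher (5.80 to 7.46), and Il1f8 (IL-36β), 2.11-fold higher; the IL-36 receptor gene Il1rl2, 3.10-fold higher; and the IL-36 receptor antagonist gene Il1f5, at 1.70 and 0.187 CPM, 9.11-fold lower (5.32 to 16.8). The antagonist of this branch thus had the opposite direction to Il1rn in the pooled epithelial-like class. Il1f5 was not compared within the clusters found in both libraries, where the Il1rn ratios given above differed from the pooled one. In stromal-like cells 1 list member was measured, Il1rl2, which was higher.

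Of the 15 inflammasome and cytokine release genes, 11 were measured in epithelial-like cells. Nlrp3, Aim2, Mefv, Casp1 and Casp4 were past 2-fold higher, Naip2 and Txnip lower, and the median log2 ratio was 0.50. Pycard, which encodes the adaptor ASC, was at 212.1 and 299.1 CPM, 1.41-fold higher (1.38 to 1.44) and short of 2-fold. Txnip, which encodes a thioredoxin inhibitor that can bind NLRP3, was 2.04-fold lower in epithelial-like cells (1.94 to 2.16) and 5.91-fold lower in stromal-like cells (5.12 to 6.82). In stromal-like cells 6 were measured, with Casp4 higher, Txnip lower and a median log2 ratio of -0.08; Nek7, a partner of NLRP3, was at 50.01 and 46.2 CPM. Injured neutrophil-like cells were at 544.9 CPM for Nlrp3, 248.6 CPM for Mefv and 843.4 CPM for Txnip. The levels of this list in epithelial-like and stromal-like cells were not compared with the neutrophil and stromal markers counted there. Nor were those of the IL-36, signalling and feedback lists, and the part of leaked RNA in these lists was not tested.

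In the receptor signalling list few genes were past 2-fold. All 20 genes were measured in both classes: none was past 2-fold higher and 2 (Irak2 and Map3k8) were lower in epithelial-like cells, with a median log2 ratio of -0.07, and 4 (Irak3, Irak4, Nfkb1 and Map3k8) were higher and none lower in stromal-like cells, with a median of 0.48. Nfkb1, which encodes the p105 precursor of NF-κB p50, was at 47.7 and 243.2 CPM in stromal-like cells, 5.10-fold higher (4.25 to 6.16), and at 82.8 and 123.3 CPM in epithelial-like cells, 1.49-fold higher. Rela and Tab2 in epithelial-like cells and Irak1 and Tab2 in stromal-like cells were short of 2-fold.

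Of the 10 feedback inhibitors, 2 (Tnip1 and Tnip3) were higher and 1 (Zfp36) lower in epithelial-like cells, with a median log2 ratio of 0.06. Zfp36, which encodes an mRNA-destabilising protein, was at 481.2 and 123.8 CPM, 3.89-fold lower (3.80 to 3.97). In stromal-like cells Tnfaip3, which encodes the A20 protein, and Tnip1 were higher among 9 measured, with a median of 0.45; Tnfaip3 was at 20.9 and 66.0 CPM, 3.15-fold higher (2.39 to 4.24). Nfkbia, the gene of the NF-κB inhibitor IκBα, was 1.53-fold lower in epithelial-like cells, at 491.4 and 320.1 CPM, and 1.90-fold higher in stromal-like cells, at 462.5 and 877.2 CPM. Nfkbiz and Dusp1 were short of 2-fold in both classes. In 2 smaller classes lower genes prevailed: 5 of 10 were lower and none higher in macrophage or monocyte-like cells (median log2 ratio -1.12), where 10.8% of genes were lower, and 5 of 9 lower and 1 higher in vascular endothelial-like cells (-1.10), where 10.2% were lower.

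Genes known to respond to IL-1 had the highest median of the 6 lists in epithelial-like and stromal-like cells. In epithelial-like cells 13 of 20 measured were past 2-fold higher and 2 (Il6 and Mmp13) lower, with a median log2 ratio of 3.05, and in stromal-like cells 15 of 19 were higher and none lower, with a median of 2.50. Epithelial Cxcl2, a neutrophil-attracting chemokine gene, was at 25.2 and 230.2 CPM, 9.13-fold higher (8.70 to 9.58). Csf3, the gene of the granulocyte growth factor G-CSF, was 12.6-fold higher (11.2 to 14.1), and Mmp3, which encodes stromelysin-1, was 25.0-fold higher (22.0 to 28.5). Injured epithelial Mmp3 stood at 0.473% of its level in stromal-like cells, inside the 0.374% to 0.623% of 8 of the 9 stromal markers. It is not read as epithelial expression, although it is among the 13 counted higher. Cxcl2 and Csf3 stood at 37.0% and 50.5%. The other genes of the list were not compared with stromal-like cells in this way, so the part of stromal RNA in the epithelial count and median was not tested. By contrast, the collagenase gene Mmp13 was at 83.6 and 16.3 CPM, 5.14-fold lower (4.84 to 5.46). In stromal-like cells Cxcl2 was at 3.10 and 622.5 CPM, 200.7-fold higher (101.8 to 465.1), and Lcn2, the gene of the iron-siderophore-binding lipocalin, was 167.5-fold higher (81.2 to 416.8). Saa3, an acute-phase gene and one of those that led the injured stromal cluster, had 3 and 10724 UMIs. In macrophage or monocyte-like cells none of 12 measured was higher and 8 were lower, with a median of -1.63, where 4.57% of genes were higher and 10.8% lower; the uninjured side was the same 16 cells. Many of these genes also answer to other cytokines, and the part of IL-1 in their levels was not tested. Neutrophil-like cells were at 19945 CPM for Cxcl2.

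Of the 10 proteases that can cut IL-1 family cytokines, 6 were measured in epithelial-like cells, with Mmp9 and Mmp2 higher and the mast cell protease genes Cma1 and Mcpt4 lower (median log2 ratio -0.57), and 5 in stromal-like cells, with Prtn3 and Mmp9 higher. Capn1, a calpain gene, was 1.79-fold lower in epithelial-like cells (1.72 to 1.86), and stromal Mmp2 was at 873.1 and 933.0 CPM. Mmp9 was at 1260 CPM in injured neutrophil-like cells. The protease levels were not compared with the neutrophil and stromal markers counted in other classes, and the part of leaked RNA in them was not tested.

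The genes whose levels ran most like a member's over 11 class and library units were found among 9985 genes by Pearson's r of log2(CPM + 1); the units share 2 libraries and differ in depth, so r is a description. Il1b ran with Ccr1 (r = 0.989), Ccl3 (0.989) and Clec4e (0.986), and Il1r2 with Clec4e (0.956), Plek (0.947) and Ccl4 (0.943). Il1rn ran with C3 (0.965), Il6ra (0.943) and Riok3 (0.943). Il1r1 ran with Lpp (0.940), Ttll7 (0.937) and Cp (0.933), Il1a with Fam110a (0.941), Tmem154 (0.936) and Fgd3 (0.935), and Il1rap with Rasa2 (0.945), Erbin (0.921) and Hnrnph2 (0.918).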

How the data were processed

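Cornea and limbus of 1 uninjured and 1 NaOH-injured wild-type mouse were profiled. The deposited matrices hold raw UMI counts per gene and cell, which Cell Ranger 7.0.1 wrote, per the file headers; the submitters' processing notes name GRCm38 as the build; the gene annotation release, the chemistry and the strand setting were not given in the sources used here. The members and lists were chosen with earlier results of these data known.

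The cell filter required 300 genes and 500 UMIs or more and allowed 20% mitochondrial UMIs; it kept 7150 of 7490 and 9003 of 9399 barcodes. Scrublet's own threshold marked 0.448% and 0.0333% of cells, so the highest-scoring 0.8% per 1000 barcodes was removed instead (375 and 657 cells). Both libraries were clustered together without batch correction (scanpy 1.11.5; 2000 variable genes, 5 of the members left out of them; 30 components, 20 neighbours, Leiden resolution 1). Sub-clusters were added after seeing the data, with the members left out too. The leading genes of 1 neutrophil sub-cluster are not reported here. UMIs were summed per class and library. Level intervals are exact Poisson, ratio intervals exact binomial and share intervals Clopper-Pearson, all at 95%; amplified reads were already collapsed to UMIs, and the intervals cover counting error only. Numerical work used Python 3.11.15, numpy 2.4.6, scipy 1.17.1 and pandas 2.3.3.

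All 10 members are named in the text; list genes were named when among the 3 with the largest ratio in either direction in epithelial-like or stromal-like cells at 50 CPM or more in 1 library, and counts past 2-fold name the genes behind them. The ratio rule was tested on simulated Poisson counts, which hold counting error only and no spread between cells, clusters or mice. It found 98.0% of 3-fold differences in the epithelial comparison and 95.9% in the stromal one. It called 0.767% of 14478 and 1.74% of 11751 unaltered genes, which are not rates of false calls between these libraries. Alternatives changed the cell filter, doublet removal, clustering, weighting, depth, floor, minimum count and fold.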

Additional observations from a re-analysis of the deposited data

Results flagged for a closer look

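Il1b had opposite directions between cell classes. Its log2 ratio of injured over uninjured was 1.63 in epithelial-like cells and 2.33 in stromal-like cells, but -2.07 in macrophage or monocyte-like cells. With 1 library per group the difference between classes was not tested. The macrophage or monocyte-like value rests on 16 uninjured cells and was -1.73 without the sub-cluster led by epithelial genes, and the injured epithelial-like and stromal-like levels lie within the range of the neutrophil markers counted in those classes.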

How the results depend on the processing

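No paired analysis was possible because each group has 1 library. Of 74 counts of members past 2-fold under alternatives, 69 stayed within 1.5 times. Over all cells the count lower became 1 at a fold of 1.5. In epithelial-like cells the count higher became 3 with every cell thinned to 500 UMIs, and the count lower became 2 without the 2 Krt13-high, Krt12-low clusters. In stromal-like cells the count higher became 1 at 500 UMIs and 3 at 1000 UMIs, since thinning leaves few UMIs. Of 217 values that the alternatives gave for log2 ratios past 2-fold, 212 kept their sign, the others came out at 0 (no direction after the floor of 3 UMIs), all of them in thinned cells, and 46 moved over 1.5 times. With every cell weighted alike the Il1b log2 ratio over all cells was 6.17, and with the stricter cell filter, which keeps 238 injured neutrophil-like cells, it was 3.01, against 4.10; Il1r2 was at 8.01 and 5.35, against 6.16. Il1a over all cells, short of 2-fold lower, was on the higher side with cells weighted alike (0.21) and at 500 UMIs (0.19). Of 30 shares of cells, 19 moved by more than their interval when cells were thinned to 1000 in place of 500 UMIs. Keeping the members among the clustering genes, and leaving out the 2 clusters or a macrophage or monocyte sub-cluster, were chosen after seeing the data.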
